A study of Mus musculus with 4 samples.

Results

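The potassium channel genes examined here were the 90 probe sets, of 22206 on the array, whose gene symbol in the platform's annotation begins with Kcn. Each of the 90 stood for a different gene, 89 of them protein-coding and 1 the long non-coding RNA Kcnq1ot1. They were measured in Neuro-2a, an established neuroblastoma cell line from an albino strain A mouse. One group was exposed to the pyrethroid insecticide deltamethrin at 30 µM for 24 h and the other to the vehicle, 0.1% DMSO, with 2 Affymetrix Clariom S Mouse arrays in each group. No DMSO content is recorded for the deltamethrin samples. The labels do not state whether the 2 arrays of a group came from separate cultures, so the p-values cover the spread between these arrays only, which may be technical. The labels name no batch, and a batch that coincided with the groups could not be told apart from the exposure. Values are log2 signals, on which a difference of 1 is a 2-fold change of the deposited signal. The variant of the authors' normalization is not given, so folds of signal need not equal folds of transcript.

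Potassium channels let K+ leave or enter the cell and set the resting potential, end action potentials and tune firing. Voltage-gated (Kv) channels are built from pore-forming alpha subunits, some of which are silent on their own and only modify others, together with cytosolic or membrane auxiliary subunits. Inward rectifiers (Kcnj) hold the resting potential, K2P channels (Kcnk) carry leak current, and calcium-activated channels (the SK and BK families) couple calcium entry to repolarisation. Pyrethroids act mainly on voltage-gated sodium channels, and potassium channels oppose the depolarisation that these carry.

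Most of the potassium channel genes gave dim signals, and a few auxiliary and alpha subunits were bright. With deltamethrin 7 of the 90 probe sets had a mean above 8, against 6 in vehicle arrays, and the same limit was passed by 37.3% of all probe sets with deltamethrin and by 36.8% with vehicle. The median of the 90 was 3.78 in deltamethrin arrays and 3.94 in vehicle arrays, while that of all probe sets was 5.60 and 5.61. In vehicle arrays 48 of the 90 (53.3%) lay at or below 4, against 28.2% of all probe sets. The median of all probe sets over the 4 arrays (5.60), called the array-wide median below, was exceeded by a group mean of 18 of the 90. The files give no detection call, so a dim value cannot be read as absence. The brightness of a probe set depends on its probes as well as on the transcript, so the order of signals is not an order of transcript amounts.

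**Figure D1:**
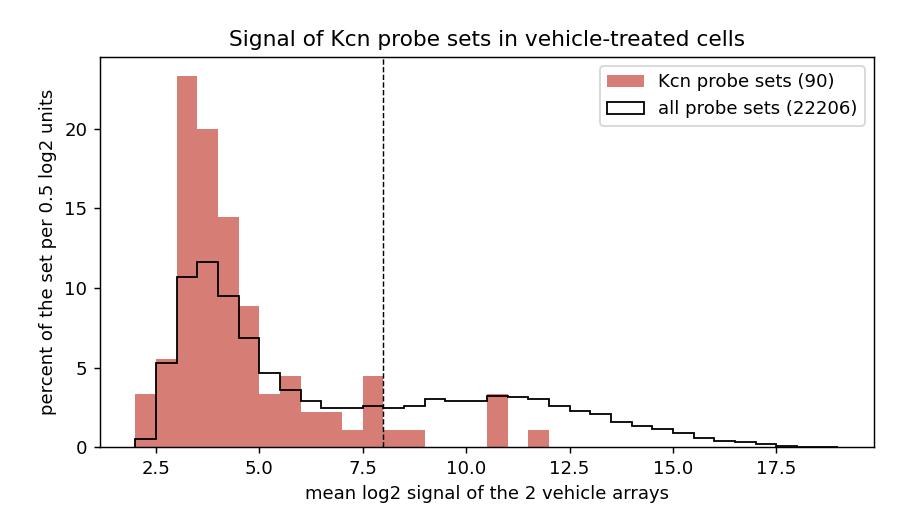
Distribution of the mean log2 signal of the 2 vehicle arrays, in bins of 0.5, as a percentage of each set, for the 90 Kcn probe sets (filled) and for all 22206 probe sets (outline). The dashed line marks 8, which 6 of the 90 exceeded, and 48 of the 90 lay at or below 4.

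The cells carried most of the listed markers of sympathetic neurons and neuroblastoma. Of 10 measured marker genes 8 were bright in both groups, among them Stmn2, which encodes a neuronal microtubule regulator, with means of 16.56 in deltamethrin and 16.71 in vehicle arrays. The noradrenaline-synthesis gene Th averaged 7.52 with deltamethrin and 6.62 with vehicle, and the neurofilament gene Nefl was dim in both. Of 13 measured markers of astrocytes, oligodendrocytes or Schwann cells, macrophages and fibroblasts, 12 were below the array-wide median with and without deltamethrin. The exception was the leukocyte gene Ptprc, at 5.73 with deltamethrin and 6.07 with vehicle. The 10 neuronal markers averaged 11.3 and 10.9 in the deltamethrin arrays, against 11.5 and 11.4 in the vehicle arrays. With deltamethrin 9 of the 10 had a lower mean, beside 52.9% of all probe sets. Both deltamethrin arrays were below both vehicle arrays for 8, beside 23.5% of all probe sets, and above them for 1, Th. The largest differences were -1.255 for Dbh and -1.14 for Isl1, and 0 of the 10 had an adjusted p below 0.05 in the limma fit below. The part of these markers in the differences below was not tested.

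No potassium channel gene passed the test of deltamethrin against vehicle. In limma, fitted over all probe sets with Benjamini-Hochberg adjustment, 0 of the 90 had an adjusted p below 0.05, where 0.432% of all probe sets did, a share that would amount to less than 1 gene in a set of this size. The smallest adjusted p among the 90 was 0.138. Before adjustment 11 had a p below 0.05, beside 13.7% of all probe sets; 2 were higher, beside 6.83% of all, and 9 lower, beside 6.84%. The median difference, deltamethrin minus vehicle, was -0.05 over the 90 and -0.02 over all probe sets, and leaving out single arrays gave -0.12 to -0.04 over the 90. In bulk RNA, fewer cells with a transcript and less transcript per cell cannot be told apart. With 2 arrays against 2, an exact two-sided permutation test of a single gene cannot give a p under 0.333.

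Both deltamethrin arrays lay beyond both vehicle arrays for 40 of the 90 probe sets (44.4%), beside 43.9% of all probe sets. By direction, 10 of the 90 (11.1%) were higher in both deltamethrin arrays, where 20.3% of all probe sets were, and 30 (33.3%) were lower, where 23.5% of all were. Among probe sets with no group mean above the median of all, 7 of 72 potassium channel genes were higher and 23 lower, beside 13.8% and 20.3% of all such probe sets. Of the 18 potassium channel genes with a group mean above that median, 3 were higher (16.7%) and 7 lower (38.9%). The shares of all probe sets with a group mean above it were 26.6% and 26.5%. The counts by direction were 16 higher and 30 lower after quantile normalization, beside 21.3% and 23.2% of all probe sets, and 11 higher and 30 lower after median centring, beside 20.6% and 23.5%. This split was noticed in the data and has no test of its own. Most of the genes in it were dim, as were 72 of all 90.

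**Figure D2:**
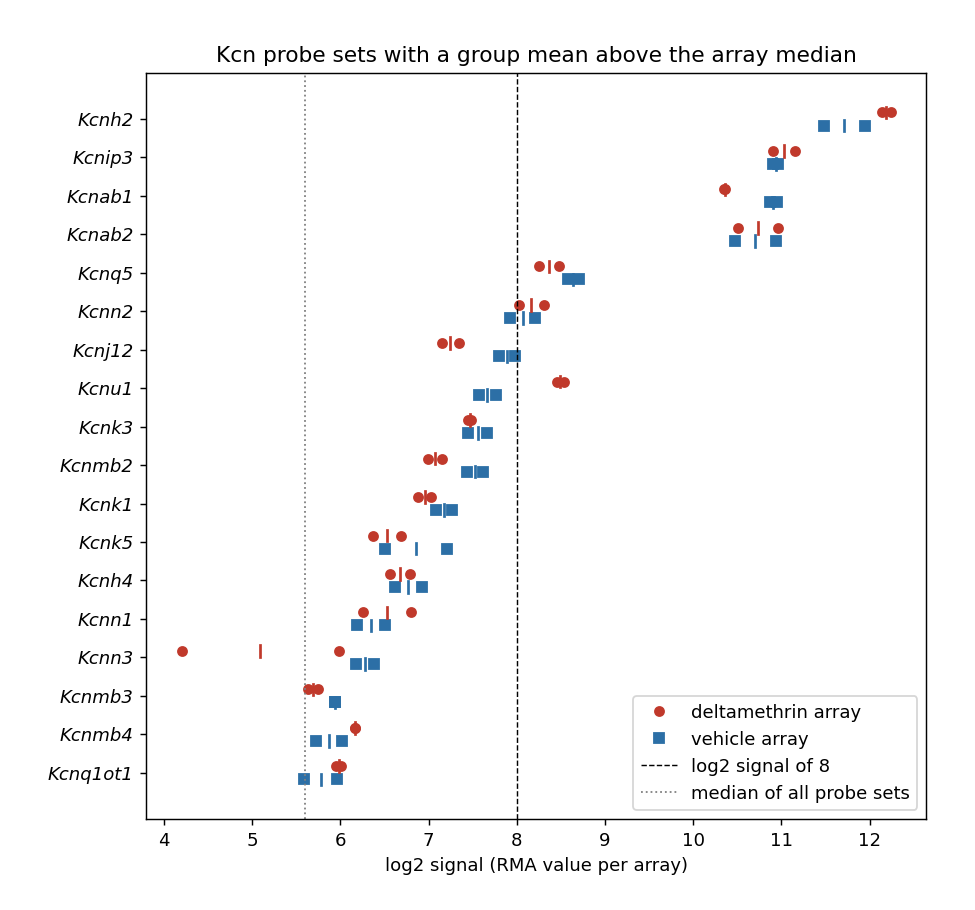
Log2 signal of each array (x axis) for the 18 Kcn probe sets with a group mean above the median of all probe sets, ordered by vehicle mean; red circles are deltamethrin arrays, blue squares vehicle arrays, and short bars group means. Both deltamethrin arrays of Kcnu1 lie to the right of 8 while both vehicle arrays lie to the left, and the 2 deltamethrin arrays of Kcnn3 are far apart.

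Among the alpha subunits, the brightest probe set of all 90 was that of Kcnh2, which encodes the ERG1 channel known for repolarising the heart. It read 12.14 and 12.24 in deltamethrin arrays, against 11.48 and 11.95 in vehicle arrays. Both deltamethrin values were above both vehicle values, although the vehicle arrays differed from each other by 0.47. The difference was 0.48 ± 0.21 (SE, n = 2 each), with a 95% interval from -0.03 to 0.98 and an adjusted p of 0.389 in limma. It was 0.24 without vehicle replicate 1 and 0.71 without vehicle replicate 2.

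The promoter windows of RefSeq, the 250 bases before an annotated transcription start, were compared with brightness, since bright genes across the array had more CpG dinucleotides there. Windows were found for 69 of the 90 genes, and the window richest in CpG stood for a gene with several. All named probe sets with a vehicle mean above 8 had a median of 18 CpG in the window, and those below the array-wide median had 4. For the potassium channel genes the medians were 14 for the 5 of 6 bright genes with a window and 9.5 for the 54 of 72 genes below the median. CpG-rich windows thus occurred among the dimmest members too. In the 54 genes below the median the count ran from 0 to 41, and Kcng3 had the highest. Kcng3 is a silent Kv subunit, with 2.83 and 2.46 in deltamethrin arrays and 2.48 and 2.46 in vehicle arrays. The windows of Kcnh2, the brightest member, and of Kcng3 are printed as an extreme pair that runs against the medians. They are given 5′ to 3′ on the strand of the gene with each CpG in capitals, and lie at chr5:24329592-24329841 and chr17:83631896-83632145 of GRCm38.p6, both on the minus strand.
Kcnh2: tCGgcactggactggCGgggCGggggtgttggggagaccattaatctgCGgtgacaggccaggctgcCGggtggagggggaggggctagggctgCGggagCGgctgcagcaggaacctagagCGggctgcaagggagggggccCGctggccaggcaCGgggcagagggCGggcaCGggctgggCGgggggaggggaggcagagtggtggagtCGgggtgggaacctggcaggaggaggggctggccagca
Kcng3: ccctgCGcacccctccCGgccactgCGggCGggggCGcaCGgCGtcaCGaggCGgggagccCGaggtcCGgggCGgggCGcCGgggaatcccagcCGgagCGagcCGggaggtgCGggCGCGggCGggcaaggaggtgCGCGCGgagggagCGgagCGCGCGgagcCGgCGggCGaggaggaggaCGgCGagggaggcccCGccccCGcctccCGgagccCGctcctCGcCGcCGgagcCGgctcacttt
The Kcnh2 window held 14 CpG at 73.6% G + C and that of Kcng3 held 41 at 82.4%. Both held GGGCGG, the GC box, on one strand or the other, as did 32.7% of all 32851 windows. These counts describe the windows, and the files hold no measurement of binding or methylation there.

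The other bright alpha subunits were Kcnq5, a Kv7 subunit that contributes to the M-current, and Kcnn2, the SK2 small-conductance calcium-activated channel. For Kcnq5 the deltamethrin arrays gave 8.48 and 8.25 and the vehicle arrays 8.58 and 8.70. The groups did not overlap, and the difference was -0.28 ± 0.18 (SE; limma adjusted p = 0.554; 95% interval -0.70 to 0.15). It was -0.16 without deltamethrin replicate 2. For Kcnn2 the values were 8.02 and 8.31 with deltamethrin and 7.92 and 8.21 with vehicle. Its arrays interleaved, and the difference was 0.10 ± 0.20 (adjusted p = 0.875; 95% interval -0.38 to 0.58). Kcnn2 was the member nearest above 8, followed by Kcnq5 and Kcnab2, and the nearest below were Kcnj12, Kcnu1 and Kcnk3, with vehicle means of 7.89, 7.67 and 7.55.

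The remaining 3 bright probe sets belonged to auxiliary subunits of Kv channels. Kcnab1 and Kcnab2 encode the cytosolic beta subunits Kv-beta-1 and Kv-beta-2, which bind Kv1 channels and resemble aldo-keto reductases, and Kv-beta-1 can speed inactivation. Kcnab1 read 10.36 and 10.35 in deltamethrin arrays, against 10.87 and 10.95 in vehicle arrays. Both deltamethrin arrays were below both vehicle arrays, and the arrays within each group differed by 0.01 and 0.08. The difference was -0.56 ± 0.16 (SE), a fold of 0.681, with a 95% interval from -0.95 to -0.16, an unadjusted p of 0.0128 and an adjusted p of 0.232 in limma. Leaving out any 1 array kept the difference between -0.60 and -0.52.

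Kcnab2, in contrast, showed no separation, with 10.51 and 10.96 in deltamethrin arrays and 10.47 and 10.94 in vehicle arrays. The difference was 0.03 ± 0.24 (adjusted p = 0.975; 95% interval -0.55 to 0.61). Replicate 1 was the lower array in both groups. Kcnip3 encodes a calcium sensor that binds Kv4 channels and also represses transcription, where it is known as DREAM. Its deltamethrin arrays gave 11.15 and 10.91 and its vehicle arrays 10.91 and 10.96, a difference of 0.10 ± 0.18 (adjusted p = 0.863; 95% interval -0.33 to 0.52). Whether the Kcnab1 and Kcnab2 differences differ from each other was not tested.

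The other 9 auxiliary subunits were dim, with vehicle means from 3.01 for Kcne4 to 5.23 for Kcnip2. They were Kcnab3, the single-span subunits Kcne1, Kcne1l, Kcne2, Kcne3 and Kcne4, and the calcium-binding partners of Kv4 Kcnip1, Kcnip2 and Kcnip4. Their differences lay between -0.05 and 0.20, and the groups overlapped for each of the 9. 

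**Figure D3:**
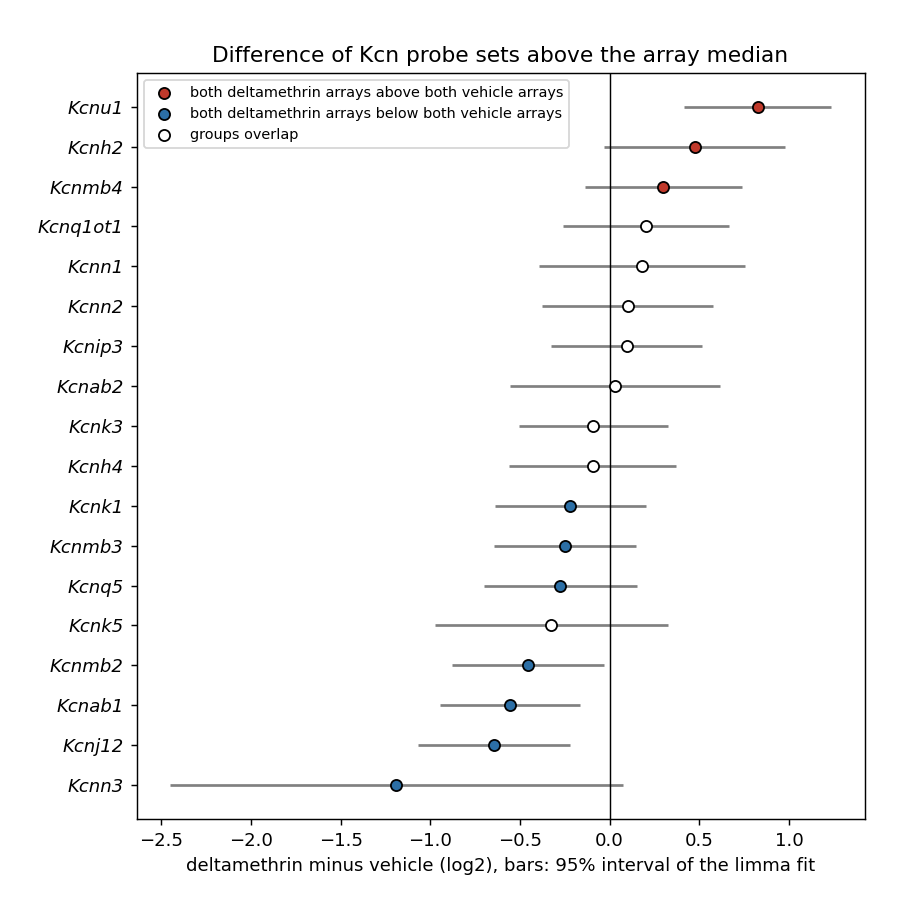
Difference of deltamethrin minus vehicle (log2, x axis) for the 18 Kcn probe sets with a group mean above the median of all, with 95% intervals of the limma fit over all 4 arrays. Filled points are genes whose groups did not overlap, and the intervals of Kcnu1, Kcnmb2, Kcnab1 and Kcnj12 did not reach 0 before adjustment.

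The largest positive difference and the smallest p among the 90 belonged to Kcnu1. It encodes SLO3, a pH-sensitive and voltage-gated channel known from sperm. Its probe set read 8.45 and 8.53 in deltamethrin arrays, against 7.57 and 7.76 in vehicle arrays. The groups were well apart for their spread, and it was the 1 member with a mean above 8 in deltamethrin arrays alone. The difference was 0.82 ± 0.17 (SE), a fold of 1.77, with a 95% interval from 0.41 to 1.24, an unadjusted p of 0.00243 and an adjusted p of 0.138 in limma. With a mean-variance trend, a setting under which 3.63% of all probe sets were called, its adjusted p was 0.0534. Leaving out any 1 array gave 0.73 to 0.92.

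The SK channels Kcnn1 and Kcnn3 had middling signals. Kcnn3, the SK3 channel, had the largest difference in either direction, but its deltamethrin arrays read 4.20 and 5.98, against 6.18 and 6.38 in vehicle arrays. The deltamethrin pair differed by 1.78, the widest gap among the 90 in either group. Its difference of -1.19 ± 0.52 (SE; limma adjusted p = 0.389) was -0.30 without deltamethrin replicate 1 and -2.08 without deltamethrin replicate 2, so its size was set by which array was used. Kcnn1, the SK1 channel, read 6.25 and 6.80 with deltamethrin and 6.50 and 6.19 with vehicle, and its groups overlapped (difference 0.18 ± 0.24). The intermediate-conductance channel Kcnn4 and the sodium-activated channels Kcnt1 and Kcnt2 were dim, with differences of -0.46, -0.01 and 0.31.

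The BK channel is a calcium- and voltage-activated channel whose beta subunits alter its gating, and none of its 4 beta subunit genes passed the test. Kcnmb2, whose product inactivates BK, read 6.99 and 7.15 in deltamethrin arrays, against 7.43 and 7.62 in vehicle arrays. The groups did not overlap and the difference was -0.46 ± 0.18 (SE; unadjusted p = 0.0385; limma adjusted p = 0.338). Kcnmb3 was also lower in both deltamethrin arrays, at 5.63 and 5.75 against 5.94 and 5.94 in vehicle arrays. Kcnmb4, the beta subunit typical of neurons, was higher, at 6.17 and 6.17 with deltamethrin against 6.02 and 5.72 with vehicle. Its difference of 0.30 ± 0.18 (adjusted p = 0.530) was 0.15 without vehicle replicate 2. Kcnmb1, typical of smooth muscle, was dim at a difference of -0.01 ± 0.26.

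Among the 15 inward rectifiers, Kcnj12, the strong rectifier Kir2.2, was the brightest and the one with a group mean above the array-wide median. It read 7.34 and 7.15 in deltamethrin arrays, against 7.80 and 7.98 in vehicle arrays. Both deltamethrin arrays were lower by more than either pair differed within its group. The difference was -0.65 ± 0.18 (SE), a fold of 0.639, with a 95% interval from -1.07 to -0.22, an unadjusted p of 0.00953 and an adjusted p of 0.209 in limma. Leaving out any 1 array gave -0.74 to -0.55.

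The other 14 inward rectifiers had vehicle means from 2.42 for Kcnj4 to 5.30 for Kcnj13. Of all 15, the groups did not overlap for 9, with 3 higher (Kcnj4, Kcnj9 and Kcnj16) and 6 lower (Kcnj1, Kcnj5, Kcnj8, Kcnj11, Kcnj12 and Kcnj13) in deltamethrin arrays, beside 20.3% higher and 23.5% lower of all probe sets. Among all probe sets with no group mean above the array-wide median, the shares were 13.8% higher and 20.3% lower. The renal channel ROMK, Kcnj1, was at -0.78 ± 0.31, with 3.37 and 3.79 in deltamethrin arrays and 4.79 and 3.93 in vehicle arrays. Kcnj11, the pore of the ATP-sensitive channel, was at -0.51 ± 0.20, and Kcnj9, a subunit of G protein-gated channels, at 0.43 ± 0.17. The signals of these 3 genes were below the array-wide median. The rectifiers with overlapping groups were Kcnj2, Kcnj3, Kcnj6, Kcnj10, Kcnj14 and Kcnj15, with differences from -0.10 to 0.49.

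The K2P leak channels were mostly dim as well, with 3 of 14 above the array-wide median. Kcnk3, the acid-sensitive channel TASK-1, read 7.48 and 7.45 with deltamethrin and 7.66 and 7.45 with vehicle, a difference of -0.09 ± 0.17 (adjusted p = 0.869). Kcnk1, or TWIK-1, read 6.88 and 7.03 with deltamethrin and 7.08 and 7.27 with vehicle, lower in both arrays though the nearest values of the groups were closer than the arrays of either pair. Kcnk5, the alkaline-activated TASK-2, read 6.69 and 6.37 with deltamethrin and 6.50 and 7.21 with vehicle, and its groups overlapped. In the class as a whole, 0 were higher and 6 were lower without overlap, beside the same 20.3% and 23.5% of all probe sets. Of all probe sets with no group mean above the array-wide median, 13.8% were higher and 20.3% lower. The 6 were Kcnk1, Kcnk4, Kcnk7, Kcnk9, Kcnk13 and Kcnk15, and none of these passed the test. Kcnk7 had the largest of these differences, at -0.65 ± 0.17 (unadjusted p = 0.00858; limma adjusted p = 0.202), with 4.78 and 4.57 in deltamethrin arrays and 5.28 and 5.36 in vehicle arrays. Kcnk2, Kcnk6, Kcnk10, Kcnk12, Kcnk16 and Kcnk18 overlapped, with differences from -0.08 to 0.30.

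The classic alpha subunits of the Shaker, Shab, Shaw and Shal families (Kcna, Kcnb, Kcnc and Kcnd), which carry much of the delayed rectifier and A-type current of neurons, were all dim. None of the 15 measured genes had a group mean above the array-wide median, and their vehicle means ran from 2.48 for Kcnc2 to 4.60 for Kcnc1. Kcnc1, a channel of fast-spiking neurons, read 4.04 and 4.39 with deltamethrin and 4.51 and 4.69 with vehicle. Differences over the class lay between -0.42 for Kcna6 and 0.32 for Kcnc2, with a median of 0.02. The groups did not overlap for 4 of the 15 (26.7%), with Kcna3 higher and Kcna6, Kcnc1 and Kcnc4 lower. The share was 43.9% of all probe sets and 34.2% of those with no group mean above the array-wide median.

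In the Kv7 and ether-à-go-go families (Kcnq and Kcnh), 3 of 11 genes were above the array-wide median. Besides Kcnh2 and Kcnq5 this was Kcnh4, a channel of the ELK group, at 6.79 and 6.56 with deltamethrin and 6.62 and 6.92 with vehicle. The class median was -0.21, with 1 gene higher (Kcnh2) and 5 lower (Kcnh3, Kcnh6, Kcnh7, Kcnq3 and Kcnq5) without overlap, where 20.3% of all probe sets were higher and 23.5% lower. For all probe sets with no group mean above the array-wide median, these shares were 13.8% and 20.3%. The dim members had vehicle means from 3.37 to 4.58 and differences from -0.33 to 0.19. The other ERG channels, Kcnh6 and Kcnh7, were dim, with differences of -0.28 ± 0.20 and -0.21 ± 0.16.

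The silent Kv subunits (Kcnf, Kcng, Kcns and Kcnv), which work mainly together with Shab subunits, had the lowest class median of the difference, at -0.31. All 10 were below the array-wide median. Kcns2 was at -0.95 ± 0.26 (unadjusted p = 0.00937; limma adjusted p = 0.207), with 2.05 and 2.72 in deltamethrin arrays and 3.19 and 3.48 in vehicle arrays. Kcnf1 was at -0.76 ± 0.25 and Kcns1 at -0.59 ± 0.22. Kcns3, the brightest of the class, went the other way, at 5.10 and 4.94 with deltamethrin against 4.66 and 4.89 with vehicle. In all, 4 were lower (Kcnf1, Kcng4, Kcns1 and Kcns2) and 2 higher (Kcng2 and Kcns3) without overlap, beside 20.3% lower and 13.8% higher among all probe sets with no group mean above the array-wide median. The class median rests on signals near the bottom of the array's range.

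**Figure D4:**
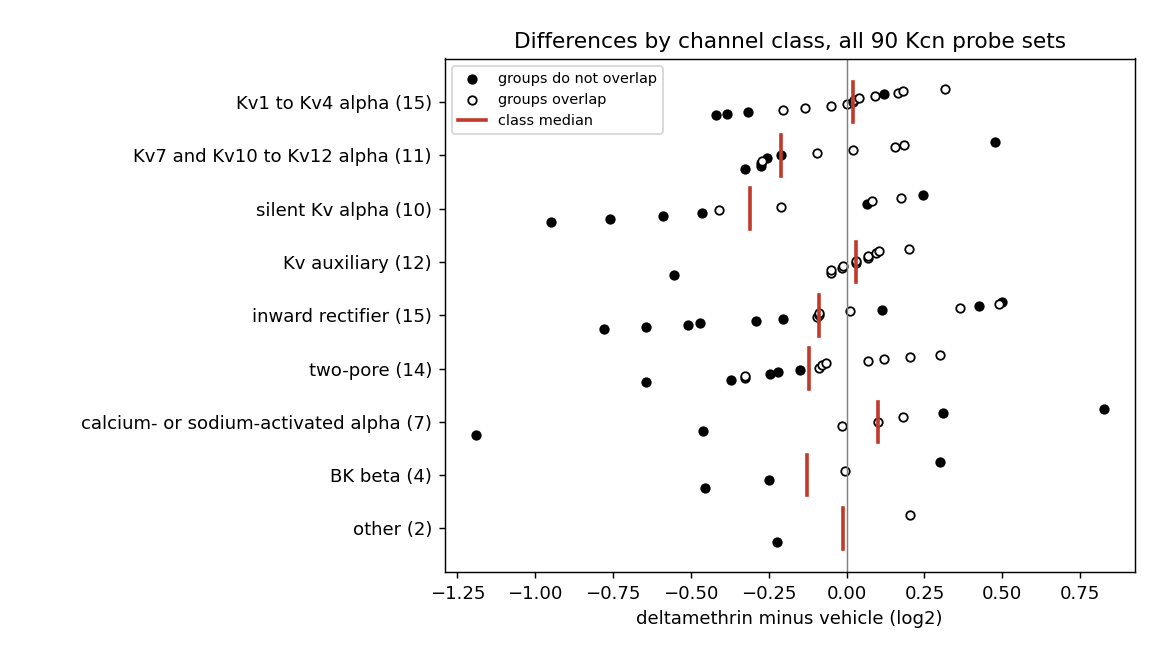
Difference of deltamethrin minus vehicle (log2, x axis) of all 90 Kcn probe sets by channel class, with the number of probe sets in brackets and a red bar at the class median. Filled points are the 40 probe sets whose groups did not overlap. Class medians run from -0.31 for the silent Kv subunits to 0.10 for the calcium- or sodium-activated alpha subunits. The latter class was formed by gene symbol and includes Kcnu1, described above as pH-sensitive and voltage-gated.

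The last pair of members are not channel subunits. Kcnq1ot1, the antisense transcript of the imprinted Kcnq1 locus, read 6.01 and 5.95 with deltamethrin and 5.59 and 5.96 with vehicle. Its groups overlapped, and the difference of 0.21 ± 0.19 was 0.02 without vehicle replicate 1. The labels and files do not say whether its probes tell the strands apart, and Kcnq1 itself was dim with a difference of 0.16 ± 0.18. Kcnrg, a regulator that interferes with Kv assembly, was at -0.22 ± 0.17 on a dim signal.

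Of 33 listed partners of potassium channels and other genes of potassium transport, 27 were measured, and 0 passed in limma, where 0.432% of all probe sets did. At an unadjusted p below 0.05, 4 were higher and 2 lower, beside 6.83% and 6.84% of all probe sets. The list's median difference was 0.07. Slc12a4, the K-Cl cotransporter KCC1, read 10.80 and 10.94 with deltamethrin and 10.08 and 10.36 with vehicle, a difference of 0.65 ± 0.18 (adjusted p = 0.219). Tmem175, the lysosomal potassium channel, was at 0.64 ± 0.18 (adjusted p = 0.215), with 9.81 and 9.92 in deltamethrin arrays and 9.11 and 9.35 in vehicle arrays. Dpp6, an auxiliary subunit of Kv4, was at 0.64 ± 0.19, with its vehicle mean below the array-wide median. Hcn2, a pacemaker channel, was at -0.59 ± 0.26, and its values were 8.03 and 8.44 with deltamethrin against 8.53 and 9.12 with vehicle. Hcn4, of the same family, went the other way at 0.44 ± 0.16 (limma adjusted p = 0.323). It read 8.31 and 8.27 with deltamethrin against 7.80 and 7.90 with vehicle. The partner of the ATP-sensitive pore, Abcc9, was dim at -0.61 ± 0.16, while the repressor of neuronal channel genes Rest was at 0.06 ± 0.20.

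Precision sets a bound on these comparisons. The median SE of a difference was 0.20 over the 90 probe sets and 0.19 over all, and the arrays of a group differed by a median of 0.23 in both groups over the 90. A difference of more than 0.5 in either direction was seen for 10 of the 90 (11.1%), against 12.7% of all probe sets. The absence of a call is thus no evidence of constant transcript levels. The intervals given above are for each gene on its own, and are not adjusted for the number of genes or for how genes were chosen.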

How the data were processed

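Total RNA of Neuro-2a cells was hybridised to Clariom S Mouse arrays, 2 per group, with groups and replicate numbers taken from the sample titles. The deposited values are log2 signals, 1 per probe set and array, made by the authors with RMA (background correction, alignment of the arrays' distributions and summary of each probe set) and Transcriptome Analysis Console. These names are per the submitters' processing notes, with versions and genome build not given in the sources used here, and the log2 scale was read from the values. The arrays' medians lay between 5.61 and 5.63.

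Symbols are those of the platform's annotation, and all 90 members matched the RefSeq table (GRCm38.p6) by Entrez ID with the same symbol. The fit used limma 3.58.1 in R 4.3.3 (lmFit and eBayes, defaults) over all 22206 probe sets and 4 arrays, two-sided, without a replicate block, with 2 residual and 4.43 prior degrees of freedom. An adjusted p (Benjamini-Hochberg) below 0.05 was a call. Errors are SE of the fit. Sequences are from RefSeq, and the fit was tested on simulated data. Genes described were those with a group mean above 8, the 6 largest differences in each direction among signals above the array-wide median, the 3 nearest to 8 on each side, the brightest of each class and the 4 largest differences among partner genes with a group mean above that median; any other gene was picked with its values in view. The members and lists were chosen with earlier results of these data known. The number of arrays limits the precision. Alternatives were the replicate block, a mean-variance trend, leaving out probe sets below the 40th percentile, quantile normalization, median centring and leaving out each array.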

Additional observations from a re-analysis of the deposited data

How the results depend on the processing

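The count of potassium channel genes called in limma was 0 with the replicate block, with a mean-variance trend, without dim probe sets, after quantile normalization and median centring, and without any 1 array; at an unadjusted p below 0.05 it was 11. The count of all probe sets called was 96, and it was 806 with a mean-variance trend (500 higher, 306 lower), 312 without dim probe sets, 0 to 0 without any 1 array and 3035 at an unadjusted p below 0.05. A mean-variance trend changes the spread assumed at each level, and the cause of the change in calls was not tested. With the replicate block 0 probe sets were called. The correlation of the deviations of the arrays numbered 1 was 0.13 over probe sets, and with 2 pairs the numbers were not taken to pair the samples. With a limit of 7 in place of 8, 11 potassium channel genes were bright in vehicle arrays, and with 9 there were 4. Without any 1 array the differences of Kcnip3 (-0.025 to 0.22), Kcnab2 (-0.21 to 0.27), Kcnn2 (-0.045 to 0.25), Kcnn1 (-0.10 to 0.46), Kcnk5 (-0.68 to 0.03) and Kcnk3 (-0.20 to 0.015) changed sign, and that of Kcnab2 was -0.000625 after quantile normalization. Over the 2 scalings and the 4 omissions of an array, which are the settings that can move a difference, 93 of 102 recomputed differences of the 17 genes named by rule kept their direction. The median difference over the potassium channel genes was -0.12 to -0.04 without any 1 array, -0.095 without dim probe sets and -0.014 after quantile normalization. Kcnc1 fell under the filter on dim probe sets and has no value there. The deposited values include no background signal, so the reach of dim values is unknown.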
